A study of Mus musculus with 4 samples.

Results

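The Zfp genes are the mouse zinc finger protein genes named Zfp and a number, and their replication timing was examined bin by bin and gene by gene. The members were chosen by name alone, as the protein-coding genes of chromosomes 1 to 19 in GENCODE vM21 whose symbol is Zfp followed by digits, with 1 gene of this naming pattern left out by the rule. This gave 357 genes of 20806 protein-coding genes on these chromosomes, and their bodies overlapped 468 bins of 50 kb, against 47928 autosomal bins with a value. A gene was called clustered when the start of another Zfp gene lay within 100 kb of its own start, and single otherwise. There were 198 clustered genes, joined into 52 clusters of neighboring starts, and 159 single genes.

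Population-based replication timing (RT) was measured by Repli-seq in F121-9, a diploid mouse embryonic stem cell line from a hybrid cas/129 cross, grown in N2B27+2i+LIF medium, which keeps the cells in a naive pluripotent state. Cells took up a pulse of BrdU, S-phase cells were sorted into an early and a late fraction, and 4 libraries of BrdU-labeled DNA were sequenced, 2 of each fraction. The deposited profile holds 1 combined value per 50 kb bin, the log2 of early over late reads after each fraction was scaled to its sequencing depth (RPM), so that a value above 0 was called early and one below 0 late. No replicate error can be given, the read depth is unknown, differences between groups of genes were not tested, and the labeled cell type was not checked against marker genes because the profile holds no expression.

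Most Zfp genes encode proteins with arrays of C2H2 zinc fingers, each finger holding a zinc ion between a pair of cysteines and a pair of histidines and contacting a few bases of DNA. Many of them also carry a KRAB domain, which recruits the corepressor Trim28 and, through it, the histone methyltransferase Setdb1, and in embryonic stem cells such proteins silence retroelements and protect imprinted loci. The family has grown by tandem duplication, so that many members sit side by side in arrays, some of them next to arrays of olfactory and vomeronasal receptor genes. Early replication is generally a property of gene-rich, active chromatin, and late replication of gene-poor, lamina-associated chromatin.

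The promoters of the members at the ends of the RT scale are shown so that their sequence can be set beside their timing. They are the 250 bases before the RefSeq start of each gene on GRCm38.p6 (the assembly of mm10), read 5′ to 3′ on the strand of the gene, with every CpG dinucleotide in capitals. Zfp146, the earliest clustered gene (RT 3.72), has its promoter at chr7:30169742-30169991 on the minus strand. Zfp551, the latest clustered gene (RT -2.46), has it at chr7:12422492-12422741 on the minus strand. Zfp36 (RT 3.83), the earliest single gene with a listed RefSeq promoter within 5 kb of its GENCODE start, has it at chr7:28379229-28379478 on the minus strand, and Zfp735, the latest single gene (RT -3.64), at chr11:73688528-73688777 on the plus strand.
Zfp146: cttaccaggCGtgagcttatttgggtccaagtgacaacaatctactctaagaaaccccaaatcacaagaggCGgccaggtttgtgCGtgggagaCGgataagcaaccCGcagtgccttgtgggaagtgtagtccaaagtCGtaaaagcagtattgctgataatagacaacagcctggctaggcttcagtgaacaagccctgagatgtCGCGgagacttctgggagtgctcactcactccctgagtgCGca
Zfp551: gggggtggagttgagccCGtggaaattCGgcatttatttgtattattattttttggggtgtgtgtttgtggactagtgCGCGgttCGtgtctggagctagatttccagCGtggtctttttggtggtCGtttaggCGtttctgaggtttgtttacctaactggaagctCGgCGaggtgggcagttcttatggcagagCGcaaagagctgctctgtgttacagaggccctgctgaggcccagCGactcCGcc
Zfp36: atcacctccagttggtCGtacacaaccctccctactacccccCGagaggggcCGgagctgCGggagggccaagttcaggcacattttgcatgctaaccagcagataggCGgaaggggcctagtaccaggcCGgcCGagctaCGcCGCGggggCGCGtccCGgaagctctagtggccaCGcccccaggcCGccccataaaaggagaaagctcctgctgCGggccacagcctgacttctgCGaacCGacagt
Zfp735: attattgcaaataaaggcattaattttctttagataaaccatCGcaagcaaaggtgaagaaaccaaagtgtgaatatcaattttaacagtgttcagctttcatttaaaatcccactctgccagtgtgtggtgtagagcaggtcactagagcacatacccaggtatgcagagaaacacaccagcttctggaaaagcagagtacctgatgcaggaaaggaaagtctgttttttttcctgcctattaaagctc
The Zfp146 stretch holds 9 CpGs and that of Zfp551 holds 13, although the first gene is early and the second late. The Zfp36 stretch holds 18 CpGs at a GC content of 64.8%, and that of Zfp735 holds 1 at 39.2%.

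Zfp bins were mostly early. Of the 468 bins, 463 had a value, and 394 of these (85.1%, exact 95% binomial interval 81.5 to 88.2) had an RT above 0, against 42.1% of all autosomal bins. The bins of clustered genes were early in 173 of 177 cases (97.7%) and those of single genes in 221 of 286 (77.3%), beside 70.1% of the bins that held the start of another protein-coding gene. These sets are unlike, because Zfp bins include bins that a gene body overlaps without a gene start. Of the Zfp bins that held a Zfp gene start, 275 of 302 (91.1%) were early. The median RT was 2.76 in bins of clustered genes, 2.5 in bins of single genes, 1.89 in the other bins with a gene start and -0.85 over all bins. An RT above 1 was found in 349 Zfp bins (75.4%), against 33.0% of all bins, and an RT below -1 in 40 (8.64%), against 48.6% of all bins. These intervals cover counting only, and neighboring bins and the genes of 1 cluster share a replication domain, so they are not independent observations.

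Counted by gene, with the RT of a gene taken as the mean over the bins its body overlaps, 324 of 354 Zfp genes (91.5%, 88.1 to 94.2) were early, against 73.6% of all protein-coding genes with a value. Clustered genes were early in 192 of 196 cases (98.0%) and single genes in 132 of 158 (83.5%). The groups were closer in their medians than in their shares. The median RT was 2.82 for clustered genes (interval 2.74 to 2.93, quartiles 2.04 and 3.21), 2.69 for single genes (2.37 to 2.99, quartiles 1.08 and 3.33) and 2.31 for all protein-coding genes (quartiles -0.19 and 3.33). The upper quartile of the clustered genes thus lay below that of all protein-coding genes, while their lower quartile lay far above it, so that clustered genes filled a narrow early range. An RT above 1 was reached by 174 of the 196 clustered genes (88.8%) and 119 of the 158 single genes (75.3%), against 65.1% of all protein-coding genes. An RT below -1 was found in 2 clustered and 17 single genes, against 19.3% of all protein-coding genes. An RT above the median of all bins (-0.85) was found in 194 of the 196 clustered and 141 of the 158 single genes (89.2%), against 79.8% of all protein-coding genes.

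**Figure D1:**
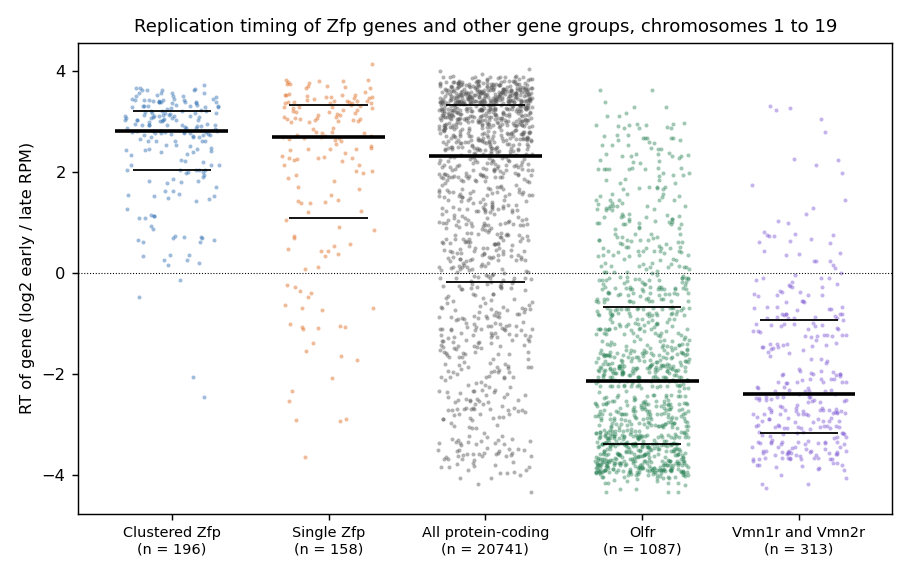
RT of each gene (y axis, log2 of early over late RPM, mean over the bins of the gene) for clustered Zfp, single Zfp, all protein-coding, Olfr and Vmn1r with Vmn2r genes of chromosomes 1 to 19. Points are genes (a random subset is drawn for all protein-coding genes), thick lines are medians and thin lines quartiles of all genes of the group; the 196 clustered Zfp genes gather around 2.82 with 4 below 0, while the Olfr genes gather around -2.13.

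Other gene families of related or similarly clustered genes were measured the same way. The Olfr genes, which encode olfactory receptors and also lie in large tandem arrays, were early in 194 of 1087 cases (17.8%) with a median RT of -2.13. The vomeronasal receptor genes Vmn1r and Vmn2r were early in 34 of 313 cases (10.9%) with a median of -2.39. Among zinc finger families with another partner domain, the Zbtb genes, whose proteins join zinc fingers to a BTB domain, were early in 38 of 40 cases with a median of 3.25. The Zkscan genes, with a SCAN and a KRAB domain, were early in 10 of 11 cases (median 2.04), and the Zscan genes, with a SCAN domain, in 11 of 19 (median 0.77, lower quartile -3.08), so that the share of early genes varied among the zinc finger families themselves.

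The 5 earliest clustered genes lay between 3.62 and 3.72. They were Zfp146 at 3.72, Zfp14 at 3.67, Zfp623 at 3.65, Zfp866 at 3.63 and Zfp382 at 3.62, and 3 of them belong to 1 cluster on chromosome 7. At the other end, Zfp551 at -2.46 and Zfp606 at -2.06 form a cluster of their own, Zfp120 was at -0.48, Zfp772 at -0.14 and Zfp418, the first on the early side, at 0.16. The other clustered genes with a value lay between 0.16 and 3.62, and the 4 late members belonged to 3 clusters.

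Single genes spread over a wider range, from -3.64 to 4.14. The highest value was that of Zfp993 at 4.14, but it rests on 1 of the gene's 2 bins, as the other has no value. Zfp683, which encodes the lymphocyte factor Hobit, and Zfp36, which encodes the mRNA-destabilizing protein tristetraprolin with fingers of the CCCH type, were both at 3.83, and Zfp384 and Zfp296 were both at 3.80. The 5 latest were Zfp735 at -3.64, Zfp352, a gene known for expression in the early embryo, at -2.94, Zfp608 at -2.91, Zfp474 at -2.89 and Zfp616 at -2.53. The bins of Zfp735, at -3.54 and -3.75, lay among neighbors at -3.04 and -3.63, so that its late value was shared by the bins around it.

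Members fixed for description were mostly genes with a known role. Zfp57, which binds methylated imprinting control regions, was at 3.34, Zfp809, which silences proviral DNA in embryonic stem cells, at 3.43, and Zfp568, a KRAB protein that represses a placental transcript of Igf2, at 3.56. Of these 3 regulators of silencing, Zfp568 lay above the upper quartile of all protein-coding genes (3.33). Zfp57 and Zfp809 lay near it, within the bin-to-bin spread described below (SD 0.16). Zfp281, a regulator of pluripotency, was at 3.38, Zfp462 at 2.71, Zfp217 at 3.36, and Zfp143, an activator that binds many promoters and loop anchors, at 3.54.
Among the other genes fixed for description, Zfp335, a neural progenitor regulator, was at 3.74, Zfp64 at 3.49, Zfp106 at 3.29, Zfp292 at 3.27, Zfp207, which encodes the spindle protein BuGZ, at 3.26, Zfp148 at 3.21, Zfp708 at 2.87 and Zfp932 at 2.86. The lower values in this list were those of 2 large developmental genes, Zfp423, a regulator of adipocyte and cerebellar development, at 1.71, and Zfp536, a neural gene, at -0.27.

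Of the 52 clusters, 51 had a value, 25 were pairs and 20 held 4 or more genes. All members were early in 48 clusters, all late in 1, and on both sides of 0 in 2. The median of the cluster means was 2.77 (range -2.26 to 3.57), 37 clusters had a mean above 2 and 5 a mean between 0 and 1. Within clusters of 3 or more genes the RT of the members differed little. Their range had a median of 0.42 (0.02 to 2.05 over 27 clusters), and the median SD within a cluster was 0.17. Between the means of all 51 clusters with a value, pairs included, the SD was 1.18. The spread of a bin about its neighbors in flat stretches of the profile, the only measure of noise that 1 profile allows, was 0.16 (SD), and 10 of the 27 clusters had a range above 4 such SDs (0.63). Genes that share a bin share its value, which lowers the range in compact clusters. The clusters are defined by closeness, and the range among other genes at the same spacing was not measured. A small range is thus not shown to be particular to Zfp clusters.

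**Figure D2:**
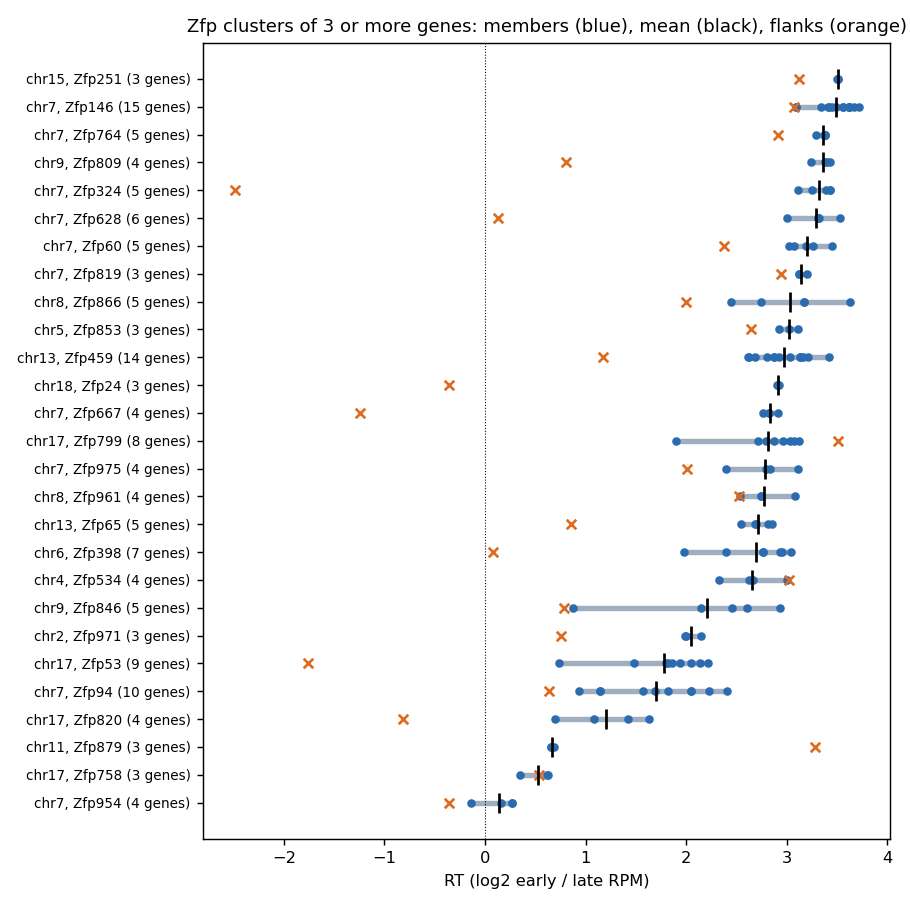
RT (x axis, log2 of early over late RPM) of the 27 Zfp clusters of 3 or more genes, each named on the y axis by chromosome, earliest member and number of genes. Blue points are members, black ticks their mean, gray bars their range and orange crosses the mean RT of the flanks 500 to 1000 kb outside; members sit close together, with a median range of 0.42, while the crosses range over early and late values.

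The largest cluster, of 15 genes on chromosome 7 (mm10 29768552 to 30169750), had a mean RT of 3.49. Along the chromosome its members were Zfp84 and Zfp30 at 3.10, Zfp790 at 3.34, Zfp940 at 3.45, Zfp420 at 3.56, Zfp27 at 3.49, Zfp383 at 3.42, Zfp74 at 3.41, Zfp568 at 3.56, Zfp14 at 3.67, Zfp82, Zfp566, Zfp260 and Zfp382 at 3.62, and Zfp146 at 3.72. The whole array spanned 0.62 and lay near the top of the scale. It is part of an early domain of 4350 kb (26900001 to 31250000) that holds 21 Zfp genes, among them a cluster of 5 at 27731389 to 28014115 with a mean of 3.20 (Zfp974 3.02 to Zfp60 3.45) and the single gene Zfp36.

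The next largest, of 14 genes on chromosome 13 (67038596 to 67553830), had a mean RT of 2.97. Zfp712 and Zfp708 were at 2.87, Zfp759 and Zfp455 at 2.62, Zfp458 at 2.69, Zfp457 at 2.81, Zfp595 at 2.92, Zfp953 at 3.03, Zfp456 and Zfp429 at 3.13, Zfp459 at 3.42, Zfp58 at 3.16, Zfp87 at 3.21 and Zfp748 at 3.14. The lowest values lay toward its centromere-proximal end and the highest toward the other. A cluster of 5 genes follows at 67658685 to 67827002, with a mean of 2.72 (Zfp493 2.54 to Zfp65 2.86), and an early domain of 3000 kb holds both.

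The cluster of 10 genes at 24081924 to 24316666 of chromosome 7 was less early, with a mean RT of 1.70, and its members followed a slope. In order along the chromosome, Zfp180 was at 0.93, Zfp112 and Zfp235 at 1.14, Zfp114 at 1.57, Zfp111 at 1.69, Zfp109 at 1.82, Zfp108 and Zfp93 at 2.05, Zfp61 at 2.23 and Zfp94 at 2.41. No member departed from the order of the slope, and the range of 1.48 was over 3 times the median range. The widest range, 2.05, was in a cluster of 5 genes on chromosome 9 (20345136 to 20605409). It too rose in order along the chromosome, from Zfp560 at 0.88 through Zfp26 at 2.14, Zfp426 at 2.45 and Zfp266 at 2.61 to Zfp846 at 2.93.

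**Figure D3:**
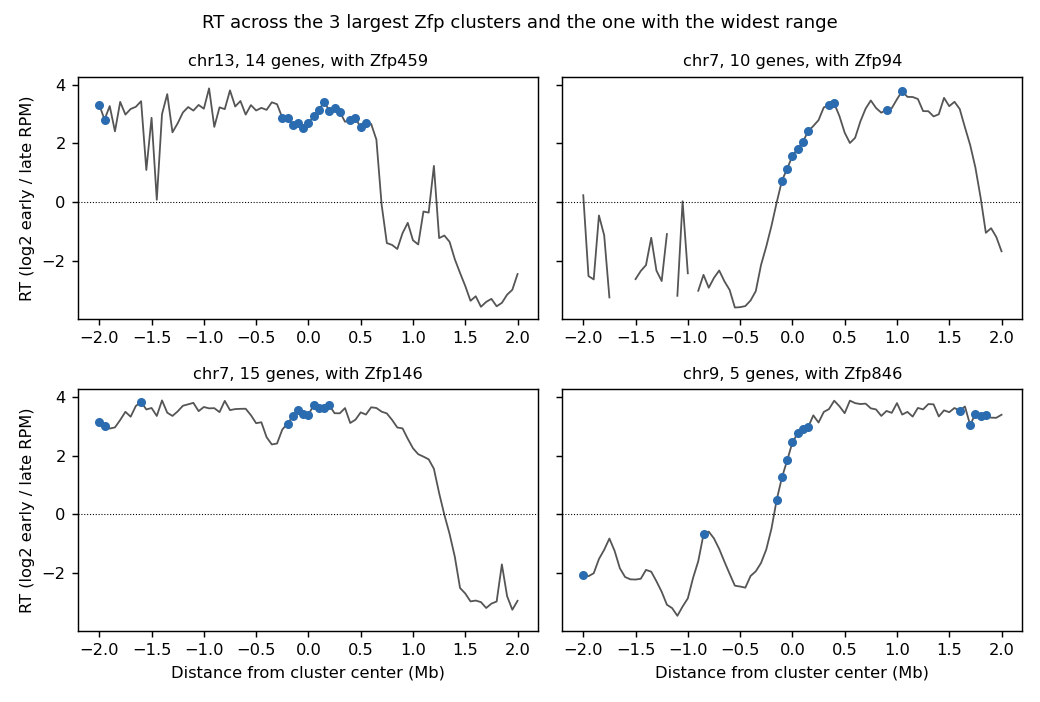
RT (y axis, log2 of early over late RPM) of 50 kb bins within 2 Mb of the center (x axis, Mb) of the 3 largest Zfp clusters and of the cluster with the widest range, in 4 panels. The gray line joins all bins and blue points are bins that overlap a Zfp gene; the cluster with Zfp146 lies on a high plateau around 3.49, while those with Zfp94 and Zfp846 lie on slopes.

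Chromosome 7 held 89 of the Zfp genes, 71 of them clustered, and 85 were early. Near its start lie a cluster of 6 genes (4915217 to 5053723, mean 3.30, Zfp580 3.0 to Zfp628 3.53) and one of 4 (6286579 to 6396915, mean 2.83, Zfp583 2.76 to Zfp667 2.91), both early. The next, of 4 genes (7114690 to 7209998), sat at the boundary of early and late, with Zfp954 and Zfp773 at 0.26, Zfp418 at 0.16 and Zfp772 at -0.14, so that it spanned 0 with a range of only 0.41. Further along, a cluster of 4 (42473386 to 42692742) had a mean of 2.78 (Zfp141 2.40 to Zfp975 3.11), and one of 5 (127342795 to 127449158) a mean of 3.36 with all members within 0.09 (Zfp768 3.29 to Zfp764 3.38).

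The only cluster with all members late lay beside one of the earliest. Zfp551 (-2.46) and Zfp606 (-2.06) occupy the adjacent bins from 12400001 to 12500000 of chromosome 7, and in the 6 bins that follow the RT rose step by step through -1.67, -1.27, -0.38, 0.37 and 1.62 to 2.47. The next cluster, of 5 genes (12804977 to 12985714), begins 309 kb after Zfp606, with Zfp329 at 3.11, Zfp110 at 3.25, Zfp128 at 3.39, and Zfp324 and Zfp446 at 3.43. Neighboring arrays of the same family thus differed by over 5 on the log2 scale across 6 bins. Trim28, which encodes the corepressor that KRAB zinc finger proteins recruit, begins 13.4 kb after the last gene of that early cluster and had an RT of 3.47. The flanks 500 to 1000 kb outside the early cluster averaged -2.49, the widest gap from its flanks (5.81) among the clusters of 4 or more genes.

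Chromosome 17 held 41 Zfp genes, 32 of them clustered, and 39 were early, but at lower values. A cluster of 9 (21383748 to 21769342) had a mean RT of 1.78 (Zfp677 0.74 to Zfp53 2.22) and one of 4 (21816885 to 22071168) a mean of 1.21 (Zfp943 0.70 to Zfp820 1.63), and both lay in 1 early domain of 1150 kb that held 18 Zfp genes. Their flanks were late, at -1.76 and -0.82. The same domain also held a pair (Zfp947 and Zfp994, mean 0.28, flanks at -0.07) and a cluster of 3. That cluster of 3 (mean 0.53, flanks at 0.53) was not earlier than its flanks. A further cluster of 8 (32765496 to 33110705) had a mean of 2.81 (Zfp563 1.90 to Zfp799 3.13) and flanks at 3.51, earlier than the cluster.

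The remaining clusters of 4 or more genes had means between 2.65 and 3.36. They were 4 genes on chromosome 4 (147492417 to 147702553, mean 2.65, Zfp982 2.33 to Zfp534 3.0), 7 on chromosome 6 (47819266 to 48086593, mean 2.69, Zfp746 1.97 to Zfp398 3.04), and 4 on chromosome 9 (22188090 to 22307648, mean 3.36, Zfp872 3.24 to Zfp809 3.43). On chromosome 8 a cluster of 5 (69610857 to 69791178) had a mean of 3.03 (Zfp868 2.44 to Zfp866 3.63) and one of 4 (71882019 to 71993792) a mean of 2.77 (Zfp709 2.53 to Zfp961 3.08). The pair Zfp120 and Zfp937 on chromosome 2 was the other cluster on both sides of 0, at -0.48 and 0.36.

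Members with a value at the limit of the distance rule were early on both sides of it. Just inside 100 kb were Zfp972 (97.7 kb from its nearest neighbor, RT 1.99) and Zfp141 (86.8 kb, RT 2.40), and just outside were Zfp72 and Zfp825 (103 kb from each other, RT 3.38 and 3.71), Zfp263 (103 kb, RT 2.14) and Zfp993 (109 kb, RT 4.14).

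Clusters were set against their surroundings. Of 51 clusters, 40 had a mean RT above that of the bins 500 to 1000 kb outside, with a median difference of 0.85, and the flanks were late around 13. By gene, the bin of the start was earlier than the flanks for 160 of 196 clustered genes (81.6%) and 114 of 157 single genes (72.6%), against 69.8% of all protein-coding genes. The median RT of the bin at the cluster center was 2.76, and at 1 Mb it was 0.77 on the centromere-proximal side and 2.06 on the other, where it was 2.83 again at 2 Mb. The 192 clustered genes with an early start bin lay in 30 early domains, with up to 20 in 1 domain, while the 134 such single genes lay in 107. The median length of these domains, counted per gene, was 3000 kb for clustered genes, 2525 kb for single genes and 2650 kb for all protein-coding genes with an early start.

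**Figure D4:**
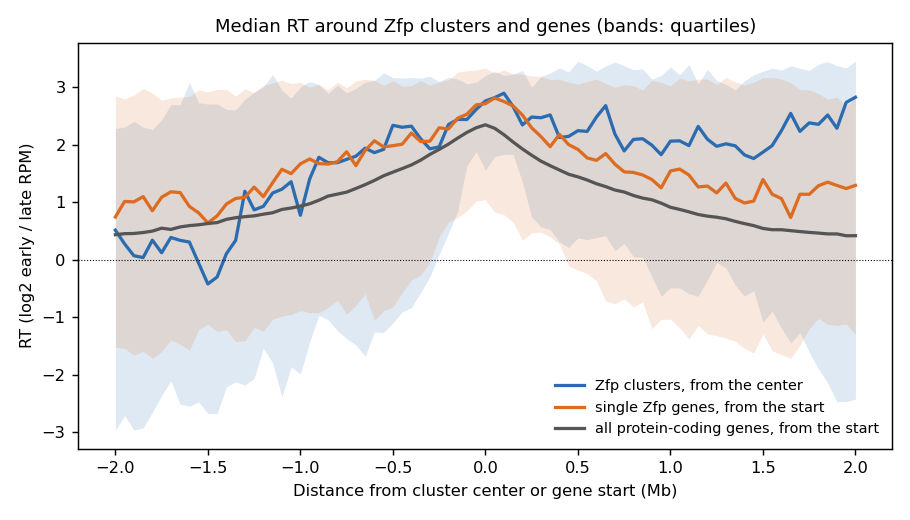
Median RT (y axis, log2 of early over late RPM) by distance (x axis, Mb) from the center of Zfp clusters, from the start of single Zfp genes and from the start of all protein-coding genes, with bands for the quartiles of the Zfp groups. At distance 0 the medians are 2.76, 2.72 and 2.35, and all 3 lines are lower 1 Mb away, least so on the positive side of the clusters (2.06), where the median is 2.83 at 2 Mb.

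Zfp genes close to receptor genes had lower medians, but over all Zfp genes the early shares were alike. With an Olfr or vomeronasal receptor gene within 500 kb, 99 of 108 were early (91.7%), and without one 225 of 246 (91.5%). The 80 clustered genes with a receptor gene this close had a median RT of 2.40 with 77 early. The 116 without one had a median of 3.02 with 115 early. The 80 include all genes of the clusters of 10 on chromosome 7 (mean 1.70) and of 9 on chromosome 17 (mean 1.78). Among single genes, 22 of 28 with a receptor gene within 500 kb were early (median 2.39) and 110 of 130 without (median 2.71). In the other direction, a comparison chosen after the values were seen, 134 of the 338 receptor genes within 500 kb of a Zfp gene were early (39.6%, median -0.58), against 94 of 1062 receptor genes farther away (8.85%, median -2.69). Genes this close share bins and domains, and these differences were not tested.

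Base composition was examined because GC content and RT go together over the genome. The bins of clustered genes had a median GC content of 42.2%, those of single genes 43.5%, other bins with a gene start 43.9% and all bins 41.4%. When all bins were divided by GC content into 5 ranges of about equal number, 37 of 40 bins of clustered genes between 38.2 and 40.3% GC were early (92.5%), against 61.9% of the bins of single genes, 30.0% of other bins with a gene start and 15.8% of all bins in that range. In the next range, up to 42.6% GC, the shares were 98.2, 68.7, 53.4 and 37.2%, in the same order. In the most GC-rich range all 36 bins of clustered genes were early, while 90 of 105 bins of single genes (85.7%) were, below the 95.1% of other bins with a gene start. Bins of single genes thus lay above other bins with a gene start in the lower ranges and below them in the most GC-rich. This comparison is not like for like, because the bins of Zfp genes include bins without a gene start. Gene number was also set aside by counting only bins with 1 gene start, of which 96.0% were early for clustered genes, 77.8% for single genes and 66.2% for others.

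**Figure D5:**
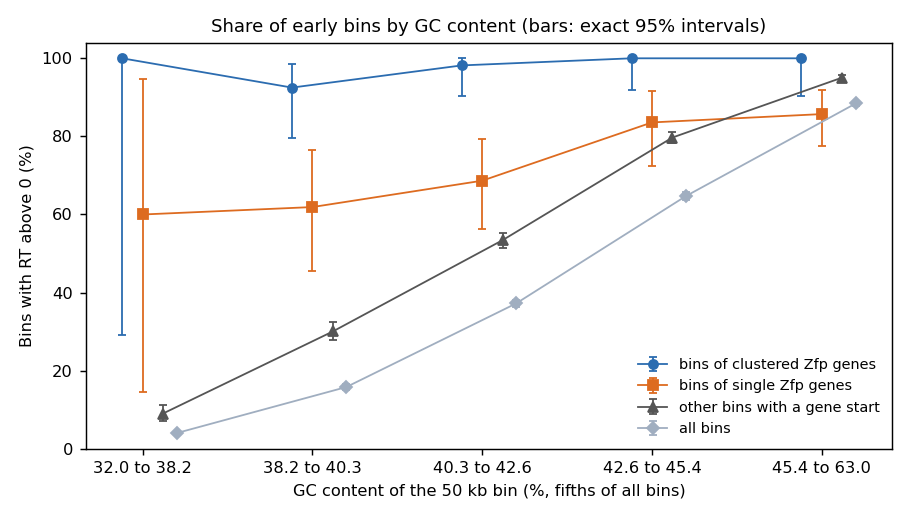
Share of bins with RT above 0 (y axis, percent) in 5 ranges of GC content with about equal numbers of autosomal bins (x axis, percent), for bins of clustered Zfp genes, bins of single Zfp genes, other bins with a gene start and all bins. Points are shares and bars exact 95% binomial intervals, which cover counting only; bins of clustered genes are at 92.5% or above in every range, with 3 bins in the lowest, while all bins go from 4.01% to 88.4%.

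Promoter CpG content, as the ratio of observed to expected CpGs over the 300 bases from 250 before to 50 after each GENCODE start, had a median of 0.58 for clustered genes, 0.68 for single genes and 0.54 for all protein-coding genes. A ratio of at least 0.6 was found in 48.0% of clustered, 56.0% of single and 45.5% of all protein-coding genes.

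At least 1 C2H2 finger pattern was found in the translated longest coding sequence of 345 of the 357 genes, with a median of 11 fingers in these proteins (12 for clustered and 9 for single genes) and up to 36. A strict KRAB pattern, which misses diverged domains such as that of Zfp568, matched 113 clustered genes (57.1%) and 40 single genes (25.2%). Of the C2H2 genes with this pattern, 142 of 150 were early (94.7%, median RT 2.76), and of those without it 172 of 192 (89.6%, median RT 2.89). The order of the shares differed between the groups. Among clustered genes, 107 of 111 with the pattern (96.4%) and 83 of 83 without it were early. Among single genes the counts were 35 of 39 (89.7%) and 89 of 109 (81.7%).

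The 30 late Zfp genes were mostly single (26) and 19 of them had an RT below -1. Of the 28 Zfp genes that span 3 or more bins, 9 were late, against 30 of 354 Zfp genes and 5476 of 20741 protein-coding genes with a value. The share among all protein-coding genes of that length was not counted. The start bin was early in Zfp800 (0.77), Zfp536 (0.47) and Zfp407 (0.39), although their mean over the body was late. In some of the long genes the timing changed within the body, and a gene over more bins can span a wider range. Zfp697, annotated over 371 kb of chromosome 3, had a mean RT of -1.04 and a range of 4.06 between its bins. The range was 2.16 in Zfp407, 1.92 in Zfp800, 1.60 in Zfp521, a regulator of neural and blood progenitors, 1.31 in Zfp423 and 1.18 in Zfp536. In the other direction, Zfp532 over 3 bins had a range of 0.07 and Zfp148 over 4 bins one of 0.08, both on early plateaus. Late genes could also vary little, as the range was 0.11 in Zfp831 over 3 bins and 0.39 in Zfp618 over 4.

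The chromosomes differed in how their Zfp genes compared with other genes. The share of early Zfp genes was above that of other protein-coding genes on 17 of 19 chromosomes. It was below it on chromosomes 12 (3 of 4 early) and 18 (6 of 11). Several chromosomes hold few Zfp genes, down to 2 on chromosome 19, and chromosomes 1 and 3 also rest on 3 of 4. Shares and medians of such chromosomes can turn on 1 gene. The median RT was higher for Zfp genes on 12 chromosomes and lower on 7. All 31 Zfp genes of chromosome 13 were early with a median of 2.92, against 1.09 for its other genes, and on chromosome 7 the medians were 3.20 and 2.14. The opposite held on chromosome 11, with 1.52 against 3.12, and on chromosome 17, with 1.90 against 3.13, so that Zfp genes there were early but less early than their chromosome.

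The genes for the machinery through which KRAB zinc finger proteins act were themselves mostly early. All 18 listed cofactor genes had an RT above 0 (median 3.48), against 73.6% of all protein-coding genes (median 2.31), among them Trim28 at 3.47, Setdb1 at 3.26, and Daxx, which encodes a histone chaperone, at 3.88. The lowest were Hdac2, a histone deacetylase gene, at 0.01 and Smarca5, a chromatin remodeler gene, at 1.96. The Hdac2 value lies within the bin noise (SD 0.16) of 0, so its side is not resolved.

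No value was present for 3 Zfp genes, Zfp968 and Zfp965 (clustered) and Zfp967 (single), all on chromosome 2, and Zfp969 had a value in 1 of its 2 bins (0.73). Of the 468 Zfp bins 5 lacked a value (1.07%), against 0.202% of all assembled bins. Those 5 lay between 175350001 and 176550000 of chromosome 2 and, for Zfp993, in 1 bin of chromosome 4. How the missing bins arose was not tested, and near-identical copies of duplicated genes can share reads.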

How the data were processed

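Genomic DNA of sorted early and late S-phase fractions (2 libraries each) was sequenced. The authors mapped reads to mm10 and deposited 1 log2 value per 50 kb bin, the log2 of the early over the late RPM. Bowtie2, SAMtools and bedtools are named in the submitters' processing notes without versions. How replicates were combined, and any filter or smoothing of this profile, are not given in the sources used here. No values per library were analysed, so read depth is unknown, and 0 columns of other samples were left unused.

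Genes were taken from GENCODE vM21, and GC content and promoters from GRCm38 (RefSeq GRCm38.p6 for the printed starts). The RT of a gene is the mean over the bins its body overlaps. Domains are runs of bins of 1 sign, joined over gaps of up to 200 kb without a value. A bin of the other sign ends the run. Shares have exact 95% binomial intervals and medians order-statistic intervals. No test across genes was run. Finger and KRAB patterns were searched in translated GENCODE coding sequences. The named genes were the 5 highest and 5 lowest of each group, all clusters of 4 or more, the 3 largest clusters and that of widest range gene by gene, genes without a value, and a list of known genes. Members, lists and this rule were chosen with earlier results of these data known. Scripts were tested on simulated data. Python 3.11.15, numpy 2.4.6, scipy 1.17.1, pandas 2.3.3, matplotlib 3.10.9 and biopython 1.88 were used. Alternatives were the gene-start bin, smoothing, missing neighbors, naming, cluster distance, 1 value per cluster, chromosome 7, the limit for early and the C2H2 pattern.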

Additional observations from a re-analysis of the deposited data

How the results depend on the processing

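Of 64 alternative values for 8 results, 10 moved beyond the 95% intervals of the reported values. For the count of clusters the limit was a fixed ratio. The difference of medians has no interval of its own and was counted as moved when either median left its interval. Only the medians and their difference could change sign, and none of them did. With early defined as an RT above 1, the shares fell to 88.8% of clustered genes, 75.3% of single genes and 75.4% of Zfp bins. With early defined as an RT above the median of all bins, they were 89.2% of single genes and 90.7% of Zfp bins. Counting only bins with a gene start gave 91.1% early Zfp bins. Without chromosome 7, which holds 71 of the 198 clustered genes, the median RT of clustered genes was 2.69 and the clustered minus single difference of medians 0.11, against 0.13 with it. That difference was 0.32 at a cluster distance of 50 kb and 0.08 with 1 value per cluster. The median range within clusters was 0.28 at 50 kb and 0.67 at 250 kb, against 0.42. Clusters on both sides of 0 numbered 1 at a distance of 50 kb and 4 at 250 kb, against 2 at 100 kb. The restriction to genes with a C2H2 pattern in translated GENCODE sequence was chosen after seeing the data, and the planned one on RefSeq proteins was not run because no protein table was used here. No paired analysis was possible because both replicates were deposited as 1 combined value per bin, and for the same reason no replicate was left out in turn. The profile gives neither depth nor replicate error, so differences of about the bin noise (0.16) cannot be read. Bins without a value were a larger share of Zfp bins (5 of 468) than of all assembled bins, and those 5 lay on chromosomes 2 and 4.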

Other observations

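The X chromosome, left out of the comparisons, holds 7 Zfp genes, of which 5 were early, beside 47.7% of 937 protein-coding X genes with a value. Zfp182 was at 2.65 and Zfp300, in the same cluster, at 2.47. Zfp185 was at 1.73, Zfp92 at 1.01 and Zfp275 at 0.21. The late members were Zfp449 at -0.77 and Zfp711 at -3.42. The chromosome is not divided by homolog in this profile.

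The distance of the cofactor genes from the nearest Zfp gene start varied from 21.3 kb for Trim28 and 86.8 kb for Chd4 to 36640 kb for Dnmt3a. The nearest values after these were 280 kb for Daxx and 342 kb for Setdb1.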
